A study of Mus musculus with 2 samples.

Results

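The 42 genes described here carry out or control DNA replication and mitosis, and they were chosen by symbol from a list that runs from the subunits of the replicative helicase to proteins of the mitotic spindle. Each symbol had a single row among the 54532 gene rows of the deposited count table, and all 42 were among the 13902 genes whose counts in both libraries summed to at least 20, here called measured. By role they fell into 14 replication genes, 10 genes of G1/S control and 18 mitosis genes. The RNA came from CD4-positive T cells of the BDC-2.5 mouse, whose transgenic T cell receptor recognises an antigen of pancreatic beta cells. In both groups activated BDC-2.5 cells were transferred into NOD.scid mice, hosts without T or B cells of their own, and on day 6 cells that lacked the GFP reporter of Foxp3 were sorted from spleen and lymph nodes and pooled over 4 mice. The 2.5HIP-PLG group had been given 1.75 mg of nanoparticles of that name intravenously 1 day after the transfer, and the Untreated group had not. There was 1 experiment with 1 library per group, made to look for how tolerance is induced.

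A cell that enters the cycle first passes the G1/S boundary, where cyclin D with Cdk4 or Cdk6 and cyclin E with Cdk2 inactivate the retinoblastoma protein and free E2F factors, which switch on the genes for copying DNA. Later in the cycle the mitotic genes are switched on, many of them through a promoter element called the CHR and the CCAAT boxes bound by NF-Y. In T cells that have met antigen, RNA of both sets marks clonal expansion, and resting T cells hold little of it.

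Total depth was 22580648 gene counts with 2.5HIP-PLG and 26036623 without, so that 1 count was worth 0.0443 and 0.0384 CPM (counts per 1000000 of the library's total). Each ratio below is the CPM of the 2.5HIP-PLG library over that of the untreated library, followed by its exact 95% interval, which reflects counting error alone. A gene was called higher or lower at a given fold when its ratio reached that fold and its interval excluded 1, and folds of 1.5 and 1.2 were used. With 1 library per group there is no replicate check, no p-value is given, and every comparison is of these libraries and not of the treatment. In RNA pooled from many cells, more dividing cells and more RNA of these genes per cell cannot be told apart.

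Most replication and mitosis genes had slightly more RNA in the 2.5HIP-PLG library, whereas the G1/S control genes did not share that shift. The median ratio was 1.199 over the replication genes, 1.203 over the mitosis genes and 0.972 over the G1/S control genes, against 0.994 over all measured genes and 1.01 over the 7022 genes with a count sum of at least 1000, among which 40 of the 42 fell. At 1.5-fold, 1 of the 42 was called higher, against 5.15% of all measured genes and 2.71% of those with a count sum of at least 1000. None of the 42 was called lower, against 9.7% and 2.86%. At 1.2-fold, 16 were called higher (12.7% of all measured genes and 12.4% of the abundant ones) and 1 was called lower (17.5% and 12.4%). The interval lay wholly above 1 for 32 of the 42 (24.3% and 34.5%) and wholly below 1 for 2 (26.3% and 28.8%), and it held 1 for the other 8. The shift was shared by many members and, apart from Mcm6, below 1.5-fold in each.

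**Figure D1:**
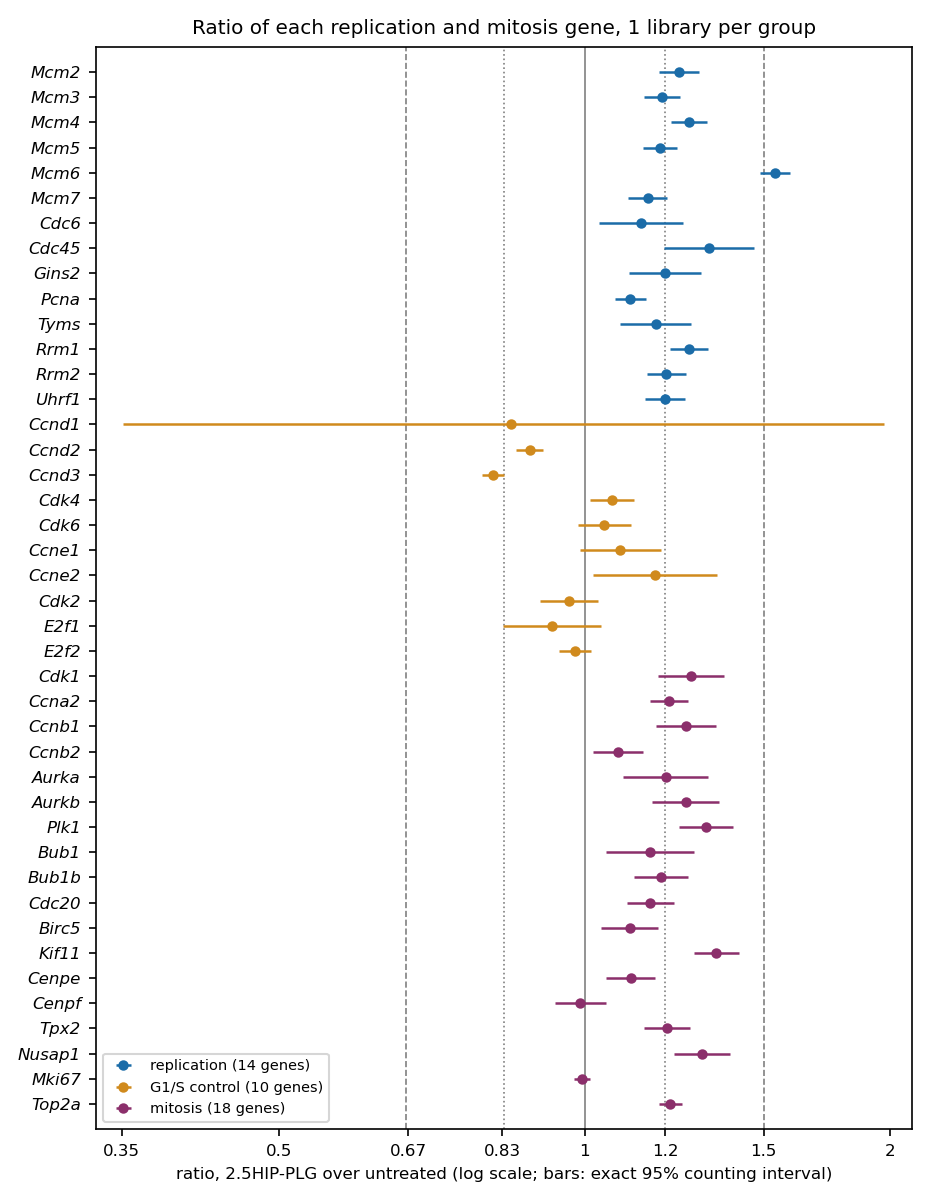
Ratio of 2.5HIP-PLG over untreated for each of the 42 genes on a log scale, coloured by role, with bars for the exact 95% counting interval and lines at 1, at 1.2-fold (dotted) and at 1.5-fold (dashed). All 14 replication genes and 16 of the 18 mitosis genes have intervals above 1, Mcm6 stands alone beyond 1.5-fold, and Ccnd2 and Ccnd3 lie below 1.

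Summed over the 42 genes, the 2.5HIP-PLG library held 6755 CPM and the untreated one 6109 CPM, a ratio of 1.11 (1.10 to 1.11). The replication genes held 2345 and 1894 CPM, a ratio of 1.24 (1.22 to 1.25). The mitosis genes held 2999 and 2662 CPM, a ratio of 1.13 (1.11 to 1.14), below their median ratio, and Mki67, the most abundant of them, was level. The G1/S control genes held 1411 and 1553 CPM, a ratio of 0.908 (0.895 to 0.922). Identity genes of CD4 T cells were also higher in the 2.5HIP-PLG library, with a larger median shift than the cycle genes. All 12 had ratios between 1.02 and 1.35, with a summed level of 9730 and 7975 CPM. Their median log2 ratio was 0.34, against 0.24 for the 42, 0.26 for the replication genes and 0.27 for the mitosis genes. The part of such a difference in the shift of the cycle genes was not tested.

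Some members are less certain than others. The expected counts of 15 were not whole, so that some of their reads were divided with other genes: Mcm7, Gins2, Pcna, Rrm2, Uhrf1, Ccnd1, Ccnd2, Ccnd3, Cdk4, Cdk6, Ccne2, Ccna2, Ccnb1, Plk1 and Nusap1. Over the 27 with whole counts the median log2 ratio was 0.31 for replication genes, 0.23 for mitosis genes and -0.04 for G1/S control genes, against 0.26, 0.27 and -0.04 with all 42. Exon bases of 15 members also belong to another annotated gene. On the other strand the largest overlaps were those of Gins2 (2758 bases with Gse1), Ccnd1 (1100 with LTO1), Cdk4 (641 with Tspan31) and Ccne2 (609 with Ints8), and on the same strand Mcm7 holds Mir25 and Mir93 and Top2a holds Gm23451, all with 0 counts in both libraries.

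**Figure D2:**
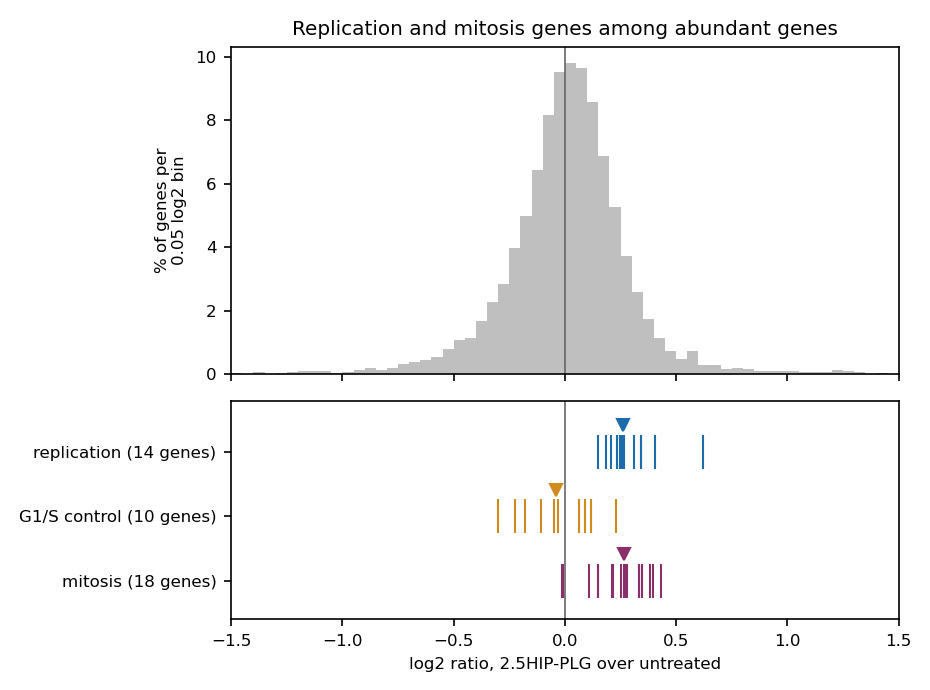
Top, log2 ratio of 2.5HIP-PLG over untreated for the 7022 genes with a count sum of at least 1000, as a percentage of genes per bin, with 63 genes beyond the axis. Bottom, 1 line for each of the 42 genes and a triangle for the median of each role; the replication and mitosis medians lie to the right of 0 and the G1/S control median at -0.04.

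The helicase that unwinds DNA ahead of the replication fork is a ring of 6 Mcm proteins. All 6 of their genes had intervals above 1, against 24.3% of all measured genes and 34.5% of the abundant ones. Mcm6 (chr1:128331590-128359664, GRCm38) had 7955 counts with 2.5HIP-PLG and 5958 without, or 352.3 and 228.8 CPM. Its ratio of 1.54 (1.49 to 1.59) was the largest of the 42 and the 1 call at 1.5-fold, and 93.9% of measured genes had a smaller ratio. The other subunits were lower in ratio and close together. Mcm4 had 4897 and 4455 counts (1.27, 1.22 to 1.32). Mcm2 had 3771 and 3511 counts (1.24, 1.18 to 1.297). Mcm3 had 4743 and 4594 (1.19, 1.14 to 1.24), Mcm5 had 5257 and 5112 (1.19, 1.14 to 1.23) and Mcm7 had 3878 and 3876 (1.15, 1.10 to 1.21).

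The subunits assemble in equal number, so their RNA was also compared within each library, which needs no scaling between libraries. For each count of the other 5 Mcm genes there were 0.353 Mcm6 counts with 2.5HIP-PLG and 0.276 without, a ratio of ratios of 1.28 (1.23 to 1.33). Against the other subunits singly, the ratio of ratios for Mcm6 ran from 1.21 (1.15 to 1.28, against Mcm4) to 1.33 (1.26 to 1.41, against Mcm7). Per kb of exon, Mcm6 stood level with Mcm5 in the untreated library, at 49.0 and 49.2 CPM per kb, and above it in the 2.5HIP-PLG library, at 75.5 and 58.3.

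The promoter of Mcm6 is shown because it is the member with the largest ratio and holds matches to the E2F motif. The capitals mark TTTGGCGC, and the bases are the 250 before the RefSeq start on GRCm38.p6, chr1:128359706-128359955, minus strand, written 5′ to 3′ along the gene.
Mcm6: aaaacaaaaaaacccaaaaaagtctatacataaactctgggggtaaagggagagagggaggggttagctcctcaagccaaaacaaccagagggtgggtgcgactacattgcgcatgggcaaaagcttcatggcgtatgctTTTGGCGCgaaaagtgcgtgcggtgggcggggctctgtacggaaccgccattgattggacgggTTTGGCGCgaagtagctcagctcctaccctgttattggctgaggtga

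The first match began 110 bases and the second 47 bases before the start. The stretches below set the Mcm6 match nearest the start beside those of the other replication genes with an E2F match before the start, on the same build, with capitals for the match (TTTGGCGC, TTTCCCGC or the reverse complement of either). They lie at chr1:128359729-128359768 (minus strand), chr8:75109344-75109383 (plus), chr5:138172025-138172064 (minus) and chr11:98907997-98908036 (plus).
Mcm6: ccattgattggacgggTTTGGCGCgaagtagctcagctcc
Mcm5: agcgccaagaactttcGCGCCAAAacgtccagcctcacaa
Mcm7: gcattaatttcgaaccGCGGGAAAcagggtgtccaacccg
Cdc6: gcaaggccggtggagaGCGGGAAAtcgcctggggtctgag
These 4 genes share the motif, and their ratios ran from 1.14 for Cdc6 to 1.54 for Mcm6. Mcm3 held E2F matches only after the start, at positions 20 and 39, and had a ratio of 1.19.

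Loading and firing of the helicase depend on Cdc6, which loads the Mcm ring, and on Cdc45 and the GINS complex, which turn it into the active helicase. Cdc45 had 822 and 715 counts, in the order 2.5HIP-PLG and untreated used from here on, and the next highest ratio of the replication genes after Mcm6 (1.33, 1.198 to 1.47). Gins2 had 1200 and 1154 counts (1.199, 1.11 to 1.301), but 2758 of its exon bases also belong to Gse1 on the other strand, and the strand setting of the counting is not given in the sources used here. Cdc6 had 865 and 877 counts (1.14, 1.03 to 1.25). Of the 3, Cdc45 was called higher at 1.2-fold, against 12.7% of all measured genes.

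Genes of the fork and of nucleotide supply differed by similar amounts. Rrm1 and Rrm2 encode the subunits of ribonucleotide reductase, which makes deoxyribonucleotides. Rrm1 had 4303 and 3917 counts (1.27, 1.21 to 1.32), and Rrm2 had 4142 and 3970 (1.203, 1.15 to 1.26). Tyms, thymidylate synthase, had 1228 and 1205 counts (1.18, 1.08 to 1.27). Uhrf1, which guides the copying of DNA methylation, had 3896 and 3744 (1.1999, 1.15 to 1.26). Pcna, the sliding clamp of the polymerases, had 5997 and 6236 counts and the smallest ratio of the replication genes (1.11, 1.07 to 1.15), although it had the highest level per length of the 42, with 110.7 and 99.8 CPM per kb. Uhrf1 and Gins2 fell just short of 1.2-fold and Rrm2 just reached it.

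**Figure D3:**
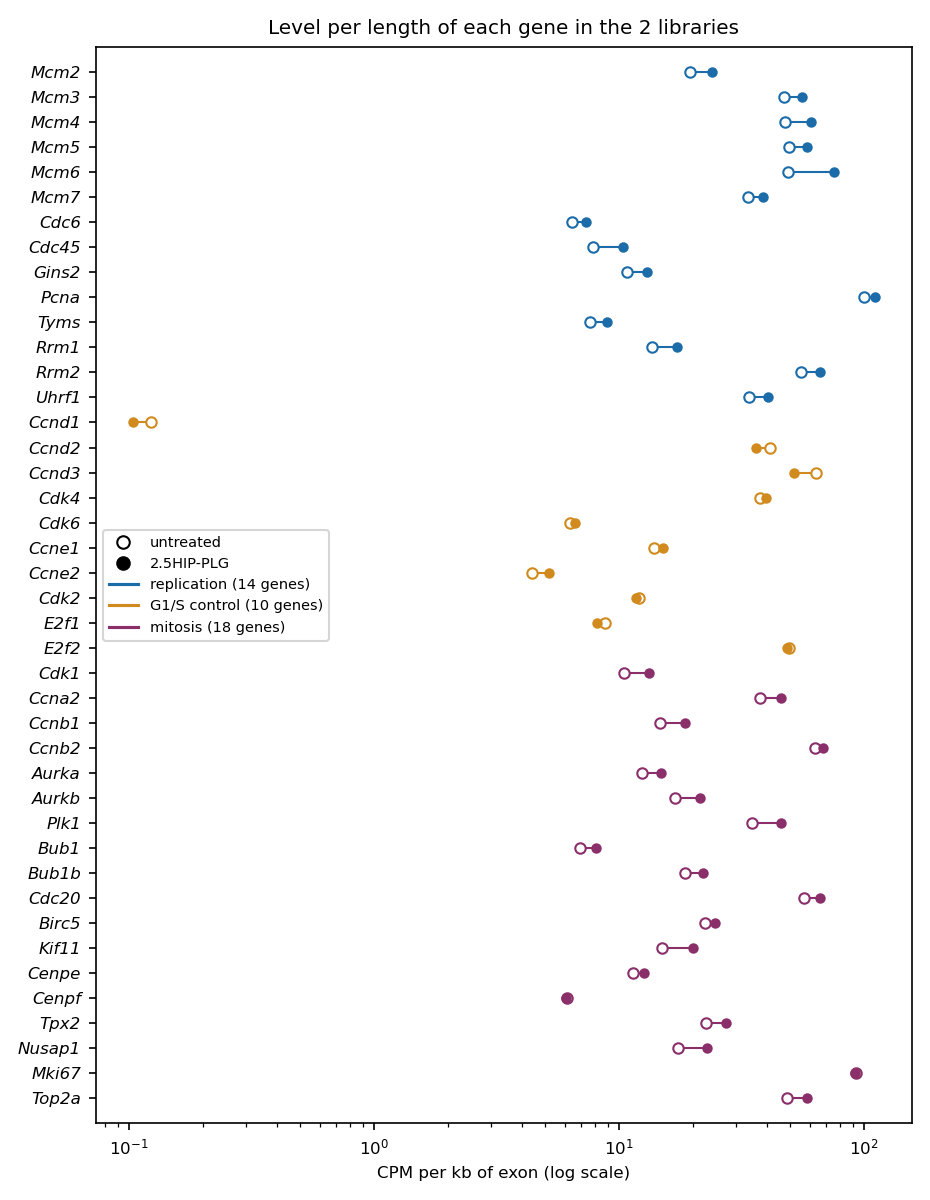
Level of each of the 42 genes in CPM per kb of exon on a log scale, with an open circle for the untreated library and a filled circle for the 2.5HIP-PLG library. Levels run from about 0.1 for Ccnd1 to 110.7 for Pcna, and the distance between the circles is small beside the range between genes.

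The G1/S control genes were mixed. The D cyclins, which link outside signals to the cycle, were lower or scarce in the 2.5HIP-PLG library. Ccnd3 (chr17:47505051-47599691) had 10246 and 14540 counts, 453.8 and 558.4 CPM, and its ratio of 0.813 (0.792 to 0.833) was the lowest of the 42 and the 1 call lower at 1.2-fold. Ccnd2 had 7724 and 10090 counts (0.883, 0.857 to 0.909). Ccnd1 had 11 and 15 counts, too few to place its ratio (0.846, 0.351 to 1.97). The D cyclin genes with an appreciable level were Ccnd3, at 51.7 and 63.6 CPM per kb, and Ccnd2, at 36.4 and 41.2, against 0.103 and 0.122 for Ccnd1. Within each library there were 0.754 and 0.694 Ccnd2 counts per Ccnd3 count, a ratio of ratios of 1.09 (1.04 to 1.13).

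The kinases that D cyclins activate were nearly level. Cdk4 had 2921 and 3167 counts (1.06, 1.01 to 1.12) and Cdk6 had 2091 and 2306 (1.05, 0.985 to 1.11). The balance of Cdk4 to Cdk6 did not differ beyond counting error, with a ratio of ratios of 1.02 (0.940 to 1.10). Cdk4 shares 641 exon bases with Tspan31 on the other strand.

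Cyclin E and its kinase act next. Ccne1 had 907 and 965 counts (1.08, 0.989 to 1.19), Ccne2 had 408 and 401 (1.17, 1.02 to 1.35), and Cdk2 had 1639 and 1958 (0.965, 0.903 to 1.03). The ratio of ratios of Ccne1 to Ccne2 was 0.924 (0.781 to 1.09). The intervals of both E2F genes among the 42, which encode activators of replication genes, held 1. E2f2 had 5326 and 6275 counts (0.979, 0.943 to 1.02) and E2f1 had 581 and 721 (0.929, 0.832 to 1.04). Per length, E2f2 was the more abundant, with 48.3 and 49.4 CPM per kb against 8.16 and 8.78 for E2f1. Apart from Ccnd2 and Ccnd3, no interval in this role lay below 1, and those of Cdk4 and Ccne2 lay above it.

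Of the 7 mitotic kinases and cyclins, all had intervals above 1, against 24.3% of all measured genes and 34.5% of the abundant ones. At 1.2-fold 6 were called higher, against 12.7% and 12.4%. Plk1, a kinase that acts from mitotic entry to cytokinesis, had 2283 and 1999 counts (1.32, 1.24 to 1.40). Cdk1, the kinase that drives mitosis, had 1477 and 1339 (1.27, 1.18 to 1.37). Its partner Ccnb1 had 1763 and 1616 counts (1.26, 1.18 to 1.35). Ccnb2, the second B cyclin, differed less, with 2354 and 2516 counts (1.08, 1.02 to 1.14), and was the member of this role not called. Ccna2, which acts in S phase and in early mitosis, had 4211 and 4008 counts (1.21, 1.16 to 1.27). Aurkb, the kinase of the chromosomal passenger complex, had 1417 and 1299 (1.26, 1.17 to 1.36), and Aurka, the kinase of the spindle poles, had 850 and 816 (1.201, 1.09 to 1.32).

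The spindle checkpoint genes were slightly higher, and none of the 3 reached 1.2-fold, against 12.7% of all measured genes called higher. Bub1b, whose product BubR1 holds back anaphase, had 2133 and 2067 counts (1.19, 1.12 to 1.26). Cdc20, which activates the anaphase-promoting complex once the checkpoint is satisfied, had 2784 and 2766 (1.16, 1.10 to 1.22), and Bub1 had 792 and 788 (1.16, 1.05 to 1.28).

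Spindle and kinetochore genes ranged from level to the largest ratio of the mitosis genes. Kif11 (chr19:37376403-37421859), the motor that pushes spindle poles apart, had 3385 and 2895 counts (1.35, 1.28 to 1.42). Nusap1, which bundles spindle microtubules, had 2087 and 1846 (1.304, 1.22 to 1.39), and Tpx2, which activates Aurora A on the spindle, had 2885 and 2762 (1.204, 1.14 to 1.27). Birc5, which encodes survivin of the passenger complex, had 1898 and 1977 counts (1.11, 1.04 to 1.18). The kinetochore motor gene Cenpe had 2468 and 2565 (1.11, 1.05 to 1.17). Cenpf (chr1:189640606-189688086), which encodes a large kinetochore protein, had 2117 and 2465 counts and was level (0.990, 0.934 to 1.05).

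The common markers of dividing cells did not move together. Top2a, the topoisomerase that untangles sister chromatids, had 11925 and 11322 counts (1.21, 1.18 to 1.25). Mki67 (chr7:135689784-135716361), which encodes Ki-67, had 20896 and 24253 counts, 925.4 and 931.5 CPM, and the narrow interval of its ratio held 1 (0.993, 0.975 to 1.01). Per length, Mki67 ranked next to Pcna in both libraries, at 92.0 and 92.6 CPM per kb. Mki67 and Cenpf were the 2 mitosis genes whose intervals held 1.

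The promoter of Kif11 is shown as that of the mitosis gene with the largest ratio, and it holds both elements of mitotic promoters. The first run of capitals marks an NF-Y box that begins 45 bases before the start, and the second run marks a CHR that begins 19 bases before it, both read from the other strand. The bases are the 250 before the RefSeq start on GRCm38.p6, chr19:37376132-37376381, plus strand.
Kif11: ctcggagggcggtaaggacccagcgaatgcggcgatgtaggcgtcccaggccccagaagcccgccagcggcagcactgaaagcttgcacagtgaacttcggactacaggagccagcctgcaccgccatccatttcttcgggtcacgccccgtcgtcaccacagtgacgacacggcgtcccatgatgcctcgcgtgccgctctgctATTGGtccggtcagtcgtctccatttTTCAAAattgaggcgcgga

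The CHR of Kif11 is set below beside those of 4 of the other mitosis genes that have a match before the start, running at most to the start, with capitals for the match on either strand. They lie at chr19:37376347-37376381 (plus strand), chr10:69352913-69352943 (minus), chr11:99024191-99024228 (minus), chr4:118437344-118437377 (minus) and chr7:135716456-135716493 (minus).
Kif11: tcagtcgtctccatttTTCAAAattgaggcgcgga
Cdk1: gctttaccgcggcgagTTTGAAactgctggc
Top2a: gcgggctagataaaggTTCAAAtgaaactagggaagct
Cdc20: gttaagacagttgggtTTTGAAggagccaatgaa
Mki67: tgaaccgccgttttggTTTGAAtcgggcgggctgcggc
Kif11, Cdk1, Top2a and Cdc20 had the match within 23 bases of the start and ratios from 1.16 to 1.35. Mki67 had it 98 bases before the start and a ratio of 0.993. Cenpf, with a match at position 3 counted from the start, had a ratio of 0.990, and Ccnb2, with matches at -167 and 5, had 1.08. Plk1, Aurka and Bub1b had matches at positions 31, 33 and 41 and ratios of 1.32, 1.201 and 1.19. Further matches of Cdk1, Top2a and Mki67 lay at -71, -179 and -116. A relation of position to ratio was not tested.

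Promoter windows of 300 bases, from 250 before to 50 after the start, were found in the RefSeq table for 34 of the 42 genes, 38 windows in all. Mcm4, Gins2, Ccnd1, Ccnd2, Ccne2, Ccna2, Aurkb and Tpx2 had no entry. On either strand, the E2F letters TTTCCCGC or TTTGGCGC were in 5 of 14 replication windows (35.7%), 2 of 9 G1/S control windows and 0 of 15 mitosis windows, against 1.56% of all 32851 windows and 2.95% of those of measured genes. The CHR letters TTTGAA were in 10 of 15 mitosis windows (66.7%) and 2 of 14 replication windows (14.3%), against 17.9% of all windows and 12.2% of those of measured genes. The letters CCAAT were in 12 of 14 replication windows and 13 of 15 mitosis windows (85.7% and 86.7%), against 37.4% of all. None of the motifs searched contains another, and a match is a description of sequence only. Holding the CHR did not sort the mitosis genes by ratio: the median was 1.195 over the 10 with it (0.990 to 1.35) and 1.16 over the 5 without it (1.11 to 1.304). Nor did holding the E2F letters sort the replication genes. Their median was 1.19 over the 5 with the letters (1.14 to 1.54) and 1.203 over the 7 without them (1.11 to 1.33).

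**Figure D4:**
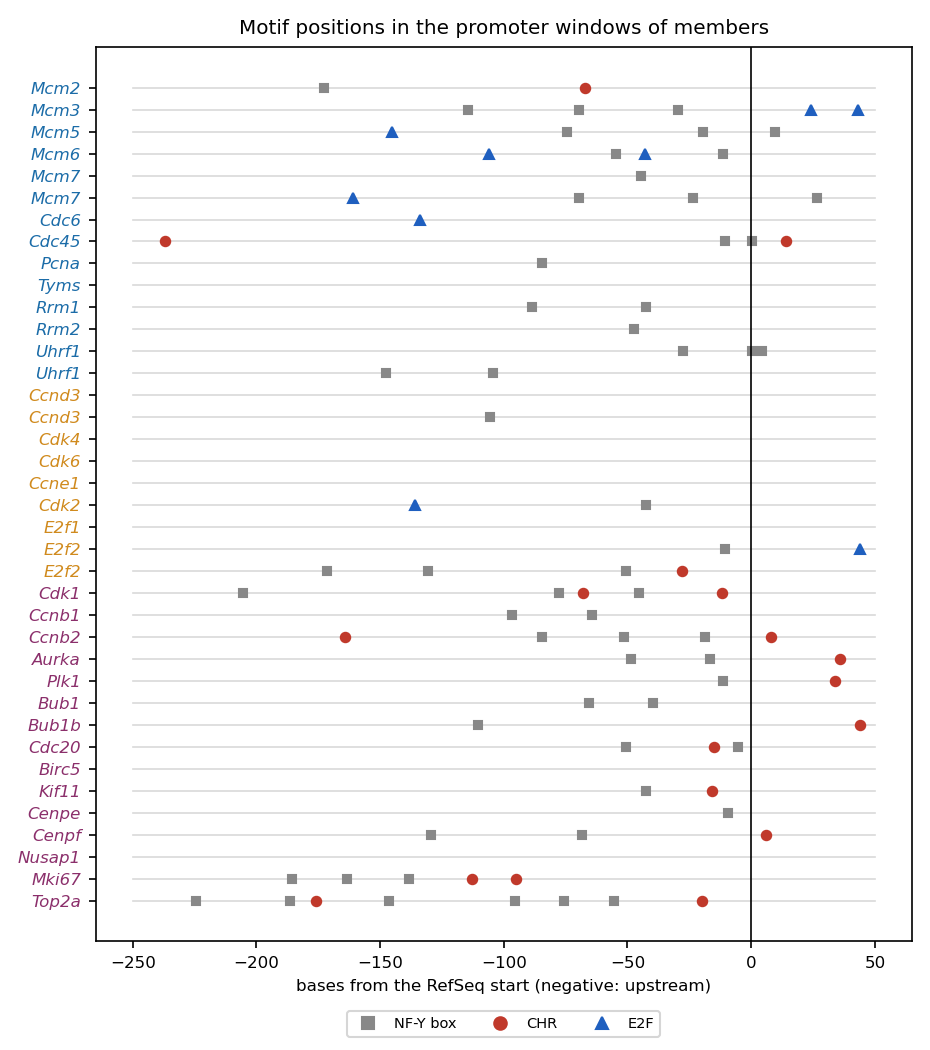
Positions of E2F, CHR and NF-Y (CCAAT) matches in the 38 promoter windows, in bases from the RefSeq start, with gene names coloured by role as in the ratio plot. E2F matches are in replication and G1/S control windows and in 0 of the 15 mitosis windows, while 10 of the 15 mitosis windows hold a CHR.

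The rest of the replication and mitosis machinery was read from 10 further lists of 216 genes, none of them among the 42, of which 215 were measured. At 1.2-fold, 65 of the 215 were called higher and 4 lower, against 12.7% and 17.5% of all measured genes. At 1.5-fold 2 were higher and 0 lower, against 5.15% and 9.7%. Among genes with a count sum of at least 1000 the shares were 12.4% and 12.4% at 1.2-fold. At 1.5-fold they were 2.71% and 2.86%. Their median log2 ratio was 0.19, against 0.24 for the 42 and -0.01 for all measured genes. The calls higher at 1.5-fold were Orc1, the largest subunit of the origin recognition complex, with 253 and 187 counts (1.56, 1.29 to 1.89), and Pole2, a subunit of the leading-strand polymerase, with 328 and 242 (1.56, 1.32 to 1.85). The expected counts of both were not whole, so some of their reads were shared with other genes.

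On the replication side, the licensing and initiation list had a low median log2 ratio of 0.11, with 3 of 19 genes called higher at 1.2-fold, a share near the 12.7% of all measured genes, and 0 lower. Polymerase and fork genes had 8 of 29 higher and a median of 0.20. Nucleotide supply genes had 7 of 15 higher and a median of 0.24, led by Shmt1, a folate cycle enzyme (291 and 241 counts, ratio 1.39), and Dut, which removes dUTP (1775 and 1473 counts, ratio 1.39). Genes for copying chromatin had 3 of 12 higher and a median of 0.18. They were led by Ezh2, the methyltransferase of Polycomb complex PRC2 (ratio 1.24), and Hells (1.22). Fork repair and S phase checkpoint genes had a median of 0.23. In that list 6 of 20 were higher and 2 lower, against 12.7% and 17.5% of all measured genes. The lower genes were Xrcc3, which acts in recombination repair (193 and 305 counts, ratio 0.730), and Atrip, the partner of the ATR kinase (338 and 506 counts, ratio 0.770).

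On the mitotic side, spindle motor and cytokinesis genes had the highest median of the 10 lists, 0.27. In that list 13 of 24 were called higher at 1.2-fold and 0 lower, against 12.7% and 17.5% of all measured genes. Ect2, which starts cytokinesis (950 and 830 counts), and Ckap2, a spindle protein gene (1046 and 916 counts), both had ratios of 1.32. Kinetochore and checkpoint genes had 10 of 34 higher and a median of 0.21, led by the checkpoint kinase gene Ttk (436 and 350 counts, ratio 1.44) and Spc25, of the Ndc80 complex (445 and 382 counts, ratio 1.34). Condensin and cohesin genes had 7 of 19 higher and a median of 0.16, led by the condensin genes Smc2 (3365 and 2789 counts, ratio 1.39) and Ncapg (1620 and 1395 counts, ratio 1.34). Genes of mitotic entry and exit had 5 of 23 higher and a median of 0.19, led by Wee1, the kinase that holds back Cdk1 (706 and 629 counts, ratio 1.29), and Mastl (306 and 288 counts, ratio 1.23).

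The list of pocket proteins, further E2F factors and cyclin-dependent kinase inhibitors had the lowest median, 0.08, and its summed level was 1480 and 1532 CPM. In it 3 of 20 genes were called higher and 2 lower at 1.2-fold, near the 12.7% higher of all measured genes and under the 17.5% lower. Cdkn1b, which encodes the inhibitor p27, had 3116 and 5037 counts, 138.0 and 193.5 CPM (0.713, 0.682 to 0.746), the lowest ratio of the 215. E2f3, an activator E2F outside the 42, had 492 and 429 counts and was higher (1.32, 1.16 to 1.51).

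**Figure D5:**
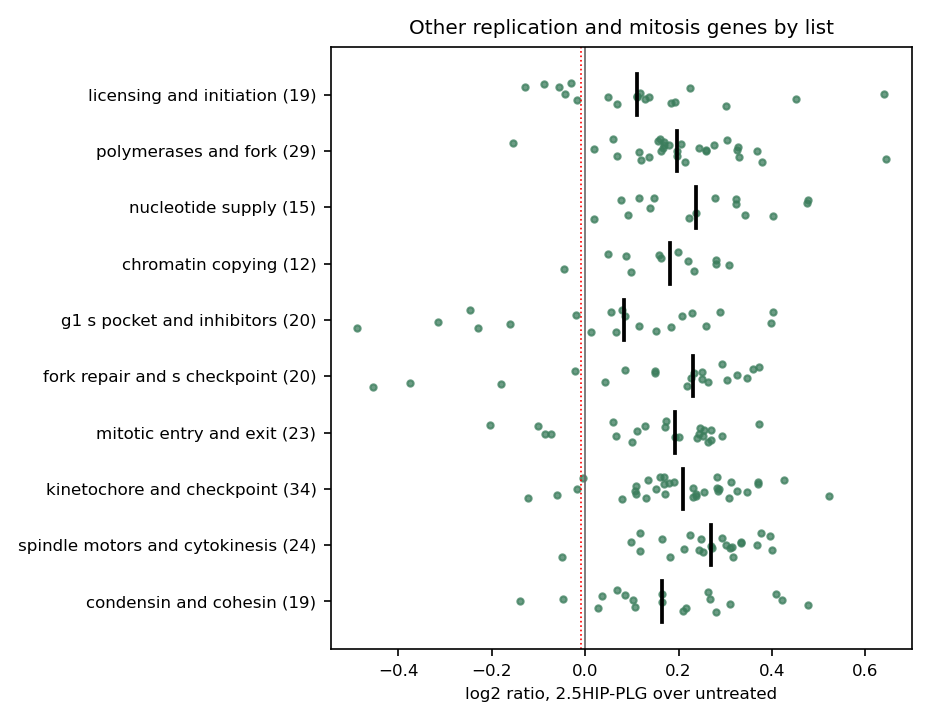
Log2 ratio of 2.5HIP-PLG over untreated for 215 further replication and mitosis genes in 10 lists, 1 point per gene (spread vertically for visibility), with a black bar for each list's median, the number of genes in brackets and a red dotted line at the median of all measured genes. All 10 medians are above 0, from 0.08 for the pocket proteins and inhibitors to 0.27 for the spindle motor and cytokinesis genes.

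Other cells that could divide in the sorted gate mostly left few counts. Calls of their markers are at 1.5-fold, where 5.15% of all measured genes were called higher and 9.7% lower. Neutrophil and precursor markers (8 genes, 4 measured, 3 called higher at 1.5-fold) summed to 15.1 CPM with 2.5HIP-PLG and 4.49 CPM without, led by Mpo with 237 and 57 counts. Mast cell and basophil markers (6 genes, 5 measured) summed to 29.9 and 21.9 CPM, and 3 were called higher at 1.5-fold, Mcpt8 (116 and 22 counts), Prss34 (199 and 54) and Cpa3 (44 and 14), whereas Kit, the most abundant, had a ratio of 0.715. Erythroid markers (9 genes, all measured, 1 higher and 1 lower) summed to 59.7 and 60.1 CPM, led by Hba-a1. B cell markers (8 genes, 3 measured, 2 higher) summed to 188.4 and 117.4 CPM, nearly all of it Ighm, while Ms4a1 had 0 counts in both. Macrophage markers (9 genes, 7 measured) summed to 146.4 and 298.1 CPM, most of it Ccr2, which T cells also express and which was the 1 called lower, while Lyz2 (101 and 47 counts) and Csf1r (50 and 27) were called higher and Fcgr1 had 0 and 3 counts. Dendritic cell markers (8 genes, 6 measured, 2 lower) summed to 20.2 and 34.0 CPM, led by H2-Aa with 2.5HIP-PLG and by Itgax without (108 and 320 counts), with Clec9a at 0 and 1 counts. NK cell markers (5 genes, all measured, 2 higher and 2 lower) summed to 48.8 and 31.6 CPM, most of it Eomes (735 and 360 counts). Klra8 (80 and 7) was also called higher, whereas Ncr1 (54 and 96) and Klrb1c (21 and 52) were called lower. Stromal and endothelial markers (7 genes, 4 measured, 2 higher) summed to 130.5 and 101.3 CPM, nearly all Pecam1, with Col3a1 at 0 in both. CD8 T cell genes summed to 13.5 and 10.8 CPM, with Cd8a at 0 and 9 counts. A count of 0 allows up to 0.133 CPM with 2.5HIP-PLG and 0.115 CPM without. How much cycle gene RNA such cells brought was not tested.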

How the data were processed

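The authors deposited expected counts for each gene. These are estimates in which a read may be divided among genes, and they were not scaled between the libraries. Per the submitters' processing notes, STAR and RSEM 1.3.1 were used with GRCm38. The sources used here do not state the annotation, the filters or the strand setting. RNA was extracted and libraries were made with Qiagen and NuGen kits, per the labels' protocols, and no molecular identifiers are described there. Repeated reads of 1 molecule may therefore have been counted separately, and the intervals may be too narrow. They cover counting error only, because each group has 1 library. Groups came from the treatment label.

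Counts were rounded and scaled by the column total. Ratios and exact conditional binomial intervals were computed in Python 3.11.15 with scipy 1.17.1, and medians used log2 ratios with 0.5 counts added. The calculation was tested on simulated data. Of the 42 genes, 15 had counts that were not whole in at least 1 library. Exon lengths, gene coordinates and overlaps came from GENCODE M21, which holds 54495 of the IDs, and promoters from RefSeq on GRCm38.p6. Scaling factors of edgeR 4.0.16 and DESeq2 1.42.0 (R 4.3.3) were tried as alternatives, with other count minimums, added counts, intervals and subsets. The 42 genes, the lists and the smaller fold were chosen with earlier results of these data known. All 42 genes are given. From each further list the text names the genes called at 1.5-fold (at most 4) or else the 2 with the largest absolute log2 ratio among genes with a count sum of at least 100, and from each marker list the most abundant gene and those at 0. Other marker genes were named after their values were seen, and some single genes of the lists are left out of the text. The stretches around motif matches were chosen after their positions were seen.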

Additional observations from a re-analysis of the deposited data

How the results depend on the processing

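The count of 42 genes called higher at 1.5-fold was 1 and that called lower was 0 under every alternative run. The count called higher at 1.2-fold was 16, and ran from 12 with upper quartile scaling to 19 with TMM scaling and was 11 of the 27 genes with whole counts, because many ratios lie close to 1.2. The count called lower at 1.2-fold fell from 1 to 0 with whole counts only, since Ccnd3 has counts that are not whole and was left out. The scalings moved all log2 ratios by between -0.01 and 0.01. The median log2 ratio of the 42 ran from 0.22 to 0.25, and those of the replication, mitosis and G1/S control genes kept their signs. Among the 10 further lists, calls higher at 1.5-fold went from 2 to 0 both with a count sum of at least 1000 and with whole counts only, which leave out Orc1 and Pole2, and calls lower at 1.2-fold went from 4 to 2 with a count sum of at least 1000, which tests fewer genes. No single ratio of the 42 left its interval under the 4 other scalings or with unrounded counts. No paired analysis was possible because each group has 1 library, and no library could be left out for the same reason. Ccnd1, with 26 counts in all, was too shallow to place.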

Other observations

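Ratio and exon length were only loosely related among these genes. Exon length here is that of all annotated exons of a gene merged, not of a single transcript. Across the 42, Spearman's rho of the log2 ratio with exon length was -0.17, and it was -0.11 across the 6869 abundant protein-coding genes (summed count of 1000 or more); all points share the same 2 libraries, and genes are not replicates. Cenpf and Mki67, level between the libraries, have long exons in sum (15.4 and 10.1 kb). Other long members were Cdk6 (13.99 kb, ratio 1.05), Rrm1 (11.01 kb, 1.27), Ccnd2 (9.41 kb, 0.883) and Top2a (9.01 kb, 1.21). Next in length came Ccnd3 (8.8 kb, 0.813) and Cenpe (8.62 kb, 1.11). A part of exon length in the ratios was not tested. With summed count, rho was 0.01 across the 42.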
